A study of Mus musculus with 24 samples.

Results

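The IL-12 family cytokine subunits were 5 genes, *Il12a*, *Il23a*, *Il27*, *Il12b* and *Ebi3*, chosen by name because their products pair into the secreted cytokines of this family. They were 5 of 23394 gene IDs in the deposited tables, and all 5 were among the 8350 genes that passed the filter on low values, a mean of at least 0.5 FPKM (reads scaled for library size and gene length) over 24 libraries. mRNA was measured by RNA-Seq in bone marrow-derived dendritic cells (BMDCs), which were grown with the growth factor GM-CSF from the marrow of C57BL/6 mice aged 9 to 12 weeks. The 8 groups were WT BMDCs left untreated (0 h), WT BMDCs given LPS (lipopolysaccharide, a component of the outer membrane of bacteria) at 10 ng/ml and harvested after 3, 6 or 9 h, and BMDCs of TTP-/- mice at the same 4 times, with 3 libraries in each group. TTP (tristetraprolin, encoded by *Zfp36*) is an RNA-binding protein that binds AU-rich elements in the 3′ UTR of mRNAs and speeds their decay, and the comparison asked which mRNAs differ in dendritic cells that lack it. In TTP-/- mice the gene is disrupted in every cell of the animal, so the marrow and the culture that grew from it could differ from WT before LPS was given.

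Cytokines of the IL-12 family are heterodimers of an alpha chain, which folds like a cytokine of the IL-6 type, and a partner chain, which resembles a soluble cytokine receptor. *Il12a* encodes p35 and *Il23a* encodes p19, the alpha chains of IL-12 and IL-23, and both pair with p40, the product of *Il12b*. *Il27* encodes p28, the alpha chain of IL-27, and pairs with the product of *Ebi3*, which can also pair with p35 to form IL-35. Dendritic cells and macrophages are the main source of IL-12, IL-23 and IL-27: IL-12 drives IFN-γ production by T and NK cells, IL-23 sustains T cells that make IL-17, and IL-27 can both promote and restrain T cell responses.

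The annotated 3′ UTRs of the subunits differed in AU-rich elements, the kind of sequence that TTP binds. For each gene the principal coding transcript with the longest 3′ UTR was used. This 3′ UTR held 6 copies of ATTTA in *Il12a*, 6 in *Il23a*, 5 in *Il27*, 6 in *Il12b* and 1 in *Ebi3*. The longer motif TATTTAT, which contains ATTTA, occurred 5 times in *Il12a*, 5 times in *Il23a*, 4 times in *Il27*, 1 time in *Il12b* and 0 times in *Ebi3*. The motif TTATTTATT, which contains both shorter ones, was present 1 time in *Il12a*, 1 time in *Il23a* and 2 times in *Il27*, and in neither partner chain. Among 21635 protein-coding genes, 60.2% held ATTTA in the 3′ UTR, 25% held TATTTAT, 6.83% held TTATTTATT, and 1.47% held at least 4 copies of TATTTAT. The 3′ UTRs were 496 bases long in *Il12a*, 660 in *Il23a*, 288 in *Il27*, 800 in *Il12b* and 248 in *Ebi3*, against a median of 783 over these genes. A stretch of 30 bases is shown for each subunit because it lets the alpha chains be set beside their partners. It was chosen by the most copies of TTATTTATT, then of TATTTAT and then of ATTTA. Each is written 5′ to 3′ on the strand of the mRNA as DNA, from GENCODE mouse release transcripts on GRCm38, and capitals mark ATTTA.
Il12a: ctATTTAtATTTATTTAttttctATTTAtt
Il23a: tgatggttATTTAttctATTTAtaaggaat
Il27: gatATTTAtttcttggatATTTATTTAttt
Il12b: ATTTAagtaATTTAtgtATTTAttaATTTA
Ebi3: tgtgaactttgtgATTTAattagaaagacg
These stretches lay at chr3:68698436-68698465 on the plus strand (*Il12a*), chr10:128296179-128296208 on the minus strand (*Il23a*), chr7:126589087-126589116 on the minus strand (*Il27*), chr11:44413473-44413502 on the plus strand (*Il12b*) and chr17:55956971-55957000 on the plus strand (*Ebi3*), each within the 3′ UTR. Within these stretches neighbouring motifs shared bases in *Il12a* and *Il27* and stood apart in *Il23a* and *Il12b*, and *Ebi3* had a single motif that is no TATTTAT. The *Il23a* stretch held 2 of the 6 copies of ATTTA in its 3′ UTR. A match to these letters is a description of the annotated sequence, and binding was not measured.

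The genes lay on 5 chromosomes of GRCm38. *Il12a* (ENSMUSG00000027776) spanned chr3:68690644-68698547 on the plus strand, *Il23a* (ENSMUSG00000025383) chr10:128296139-128298752 on the minus strand, *Il27* (ENSMUSG00000044701) chr7:126589010-126594941 on the minus strand, *Il12b* (ENSMUSG00000004296) chr11:44400063-44414033 on the plus strand and *Ebi3* (ENSMUSG00000003206) chr17:55952640-55957022 on the plus strand. *Il27* overlapped *Apobr* on the other strand and *Ebi3* overlapped the antisense gene *Gm16712*. Whether reads were counted by strand is not given in the sources used here, so reads of *Il27* and *Ebi3* may be shared with these neighbours.

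Depth was similar over the series, with 19966708 to 25553546 reads assigned to genes per library and a median of 22559946. *Zfp36*, the targeted gene, was lower in every TTP-/- library than in every WT library at each time (log2 fold change −1.11 at 0 h and −0.30 to −0.50 under LPS, past the threshold at 0, 3 and 9 h), but its reads were still present at 87.4 to 162 FPKM in TTP-/- libraries. These gene-level reads do not show which part of the gene they cover. Of 12 dendritic cell markers, 9, 9, 8 and 10 were lower in TTP-/- than in WT BMDCs at the 4 times in turn and 0, 1, 2 and 1 higher, among them *Itgax*, which encodes CD11c, at 6 h (0.71, adjusted p = 0.0131) and 9 h (1.39, adjusted p = 4.32e-05). *Cd74*, the invariant chain of class II molecules, had group means of 594 to 702 FPKM in TTP-/- and 894 to 1100 FPKM in WT BMDCs. It was lower in TTP-/- BMDCs at 0 h (−0.76, limma adjusted p = 0.0348), 3 h (−0.65, adjusted p = 0.00782) and 9 h (−0.46, adjusted p = 0.00445). At 6 h it did not pass the threshold (−0.56, adjusted p = 0.107). Of 16 neutrophil markers 14 were tested, of which 13 were higher at 0 h and all 14 under LPS. Among them *Elane* and *Ctsg* had WT means under 0.5 FPKM at all 4 times, *Csf3r* under LPS and *Ltf* at 6 and 9 h. These passed the filter only through TTP-/- libraries, so their direction was set in part by the filter. Of all genes tested, 15.5%, 14.6%, 6.7% and 19.1% were lower at 0, 3, 6 and 9 h, and 13.9%, 11.3%, 10.4% and 17.7% higher. WT replicate 1 at 3 h stood apart from the other 2 WT libraries of its time in macrophage markers and in the alpha chains.

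Across the time course, the mRNAs of *Il12a* and *Il27* were higher in TTP-/- BMDCs at all 4 times and that of *Il23a* at 6 and 9 h, with the largest differences at 9 h, whereas *Il12b* changed in both directions and *Ebi3* little. Before LPS *Il12a* and *Il27* were called higher in the absence of TTP, against 13.9% of all genes tested, and *Il12b* was lower, against 15.5%. At 3 h the same 2 genes were called higher, against 11.3% of all genes, and no subunit was lower, against 14.6%. At 6 h 3 subunits were higher, *Il12a*, *Il27* and *Il23a*, against 10.4% of all genes, and none was lower, against 6.7%. At 9 h 4 subunits were higher, the 3 alpha chains and *Il12b*, against 17.7% of all genes, and *Ebi3* was lower, against 19.1%. A gene was called at an adjusted p under 0.05 in limma, fitted to log2(FPKM + 0.1) of the 6 libraries of a time, with p-values adjusted by Benjamini-Hochberg over all genes tested. Since bulk RNA was sequenced, a change in the number of producing cells and a change in mRNA per cell cannot be told apart.

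**Figure D1:**
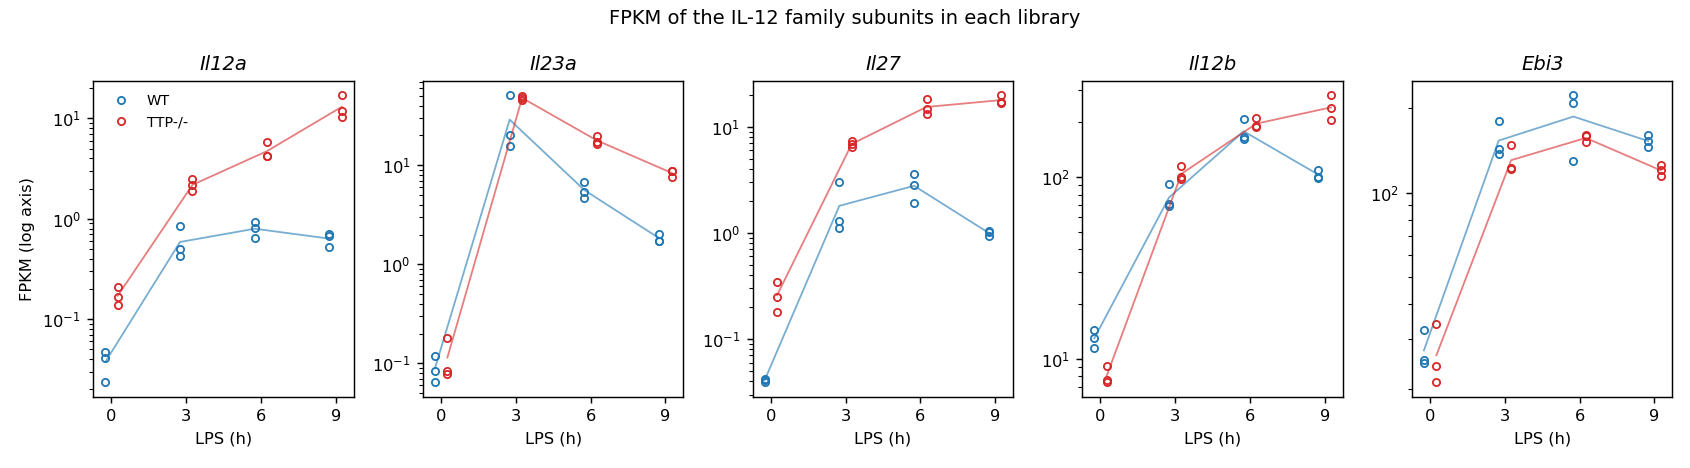
FPKM of each subunit in each of the 24 libraries (log axis) by hours of LPS, with WT in blue and TTP-/- in red, and lines through the group means of 3 libraries. For *Il12a* and *Il27* every TTP-/- library lay above every WT library at all 4 times, for *Il23a* at 6 and 9 h, and the *Ebi3* groups lay close together.

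*Il12a*, the p35 chain of IL-12, showed, together with *Il27*, the largest genotype differences of the family at 9 h, and these 2 were not apart beyond their intervals. Before LPS its mRNA was barely detected in WT BMDCs, at 0.0413, 0.0474 and 0.0234 FPKM, which stand for 4 to 9 reads per library, and stood at 0.208, 0.166 and 0.140 FPKM in TTP-/- BMDCs. At 3 h it measured 0.845, 0.495 and 0.422 FPKM in WT cultures and 2.48, 2.16 and 1.89 FPKM in those without TTP. These groups did not overlap at either time, and the lowest TTP-/- library at 3 h was above the highest WT library, replicate 1. At 6 h the WT libraries stood at 0.815, 0.640 and 0.933 FPKM and the TTP-/- libraries at 4.23, 4.19 and 5.78 FPKM. At 9 h the WT libraries were little different, at 0.710, 0.524 and 0.670 FPKM, while the TTP-/- libraries reached 12.0, 17.0 and 10.3 FPKM. Mean FPKM of TTP-/- BMDCs was 4.58-fold that of WT BMDCs at 0 h, 3.71-fold at 3 h, 5.95-fold at 6 h and 20.6-fold at 9 h. The log2 fold change was 0.98 (SE 0.175, adjusted p = 0.0069, limma) at 0 h, 1.77 (SE 0.23, adjusted p = 0.00306) at 3 h, 2.43 (SE 0.18, adjusted p = 0.000158) at 6 h and 4.14 (SE 0.194, adjusted p = 1.86e-05) at 9 h. The added 0.1 FPKM understates the change of so low a gene at 0 h.

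*Il27*, the p28 chain of IL-27, followed *Il12a* closely. Untreated WT BMDCs held 0.0413, 0.0421 and 0.0390 FPKM, or 5 to 6 reads per library, and untreated TTP-/- BMDCs 0.251, 0.179 and 0.346 FPKM. At 3 h the WT libraries stood at 3.00, 1.29 and 1.12 FPKM and the TTP-/- libraries at 7.29, 6.52 and 6.89 FPKM. As for *Il12a*, WT replicate 1 was the highest of the WT libraries at 3 h and still lay below each TTP-/- library. At 6 h WT BMDCs held 1.93, 2.84 and 3.57 FPKM and TTP-/- BMDCs 13.4, 14.7 and 18.1 FPKM. At 9 h the mRNA measured 1.01, 0.944 and 1.04 FPKM in WT BMDCs and 17.2, 19.8 and 16.6 FPKM in TTP-/- BMDCs. The genotypes were separate at each time, with mean FPKM of TTP-/- BMDCs at 6.34-fold, 3.83-fold, 5.54-fold and 17.9-fold that of WT BMDCs in the order of time. The log2 fold change was 1.32 (SE 0.203, adjusted p = 0.00356, limma) at 0 h, 2.01 (SE 0.34, adjusted p = 0.00776) at 3 h, 2.46 (SE 0.232, adjusted p = 0.000477) at 6 h and 4.03 (SE 0.0959, adjusted p = 3.67e-06) at 9 h. The overlapping gene *Apobr*, which encodes a lipoprotein receptor, was higher in TTP-/- BMDCs by 1.08 to 1.34 on the log2 scale at the 4 times, against 1.32 to 4.03 for *Il27*, and the share of *Il27* reads that could come from it was not tested.

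*Il23a*, the p19 chain of IL-23, was all but absent before LPS, with 3 to 9 reads per library, and most abundant at 3 h. Untreated WT BMDCs had 0.0839, 0.0643 and 0.119 FPKM and untreated TTP-/- BMDCs 0.181, 0.0842 and 0.0783 FPKM. At this depth a difference was not detectable (log2 fold change 0.16, 95% interval −0.39 to 0.71, adjusted p = 0.653, limma). At 3 h the WT libraries stood at 50.8, 20.2 and 15.7 FPKM and the TTP-/- libraries at 49.8, 47.6 and 46.0 FPKM. WT replicate 1 lay above each TTP-/- library, while the other WT libraries lay below them by over 2-fold. The log2 fold change at 3 h was 0.92 (95% interval −0.07 to 1.90, adjusted p = 0.150) with all libraries and 1.42 (SE 0.117, adjusted p = 0.000496) without WT replicate 1, and in a single fit of all 24 libraries it passed the threshold (0.92, adjusted p = 0.0198). At 6 h WT BMDCs held 4.72, 6.79 and 5.33 FPKM against 16.5, 17.4 and 19.7 FPKM in TTP-/- BMDCs. At 9 h they held 1.73, 1.73 and 2.05 FPKM against 8.68, 8.82 and 7.65 FPKM. The groups no longer overlapped, and mean FPKM was 3.18-fold higher in TTP-/- BMDCs at 6 h (log2 fold change 1.66, SE 0.16, adjusted p = 0.000516) and 4.57-fold higher at 9 h (2.13, SE 0.103, adjusted p = 2.10e-05).

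*Il12b*, the p40 chain shared by IL-12 and IL-23, went from lower to higher in TTP-/- BMDCs over the time course. Before LPS it measured 12.9, 11.5 and 14.3 FPKM in WT cultures and 7.38, 9.09 and 7.63 FPKM in those without TTP. Every untreated TTP-/- library was below every untreated WT library, with mean FPKM at 0.622 of the WT mean (log2 fold change −0.68, SE 0.135, adjusted p = 0.0101, limma). At 3 h WT libraries stood at 91.2, 71.0 and 69.3 FPKM and TTP-/- libraries at 115, 99.9 and 98.1 FPKM, which did not overlap. The difference missed the threshold (log2 fold change 0.44, SE 0.132, adjusted p = 0.0528) and passed it without WT replicate 1 (0.57, adjusted p = 0.00421). At 6 h the genotypes overlapped, with 208, 167 and 161 FPKM in WT cultures and 213, 190.1 and 188 FPKM in those without TTP (log2 fold change 0.15, 95% interval −0.19 to 0.48, adjusted p = 0.546). At 9 h WT BMDCs held 100.1, 110 and 98.8 FPKM and TTP-/- BMDCs held 239, 282 and 205 FPKM. That was 2.35-fold higher in TTP-/- BMDCs (log2 fold change 1.22, SE 0.129, adjusted p = 0.00039). *Il12b* was covered by 2636 to 81256 reads per library, so that counting error was small for it.

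*Ebi3*, the partner chain of IL-27, was the only subunit that was not called higher in TTP-/- BMDCs at any of the 4 times. It stood at 24.6, 32.4 and 25.2 FPKM in untreated WT and 21.1, 24.02 and 33.9 FPKM in untreated TTP-/- BMDCs. At 3 h the values were 137, 180 and 143 FPKM in WT cultures and 121, 147 and 123 FPKM in those without TTP. At 6 h they were 130.2, 222 and 208 FPKM in WT cultures and 151, 160.2 and 159 FPKM in those without TTP. The genotypes overlapped at these 3 times, with log2 fold changes of −0.08 (95% interval −0.56 to 0.41, adjusted p = 0.816, limma), −0.23 (−0.56 to 0.10, adjusted p = 0.274) and −0.22 (−0.71 to 0.28, adjusted p = 0.551). Without WT replicate 1, the lowest WT library at 6 h, the value at 6 h passed the threshold (−0.46, adjusted p = 0.0143). At 9 h the libraries separated, at 153, 161 and 145 FPKM in WT cultures and 125, 115 and 120.1 FPKM in those without TTP. Mean FPKM was 0.786 of the WT mean (log2 fold change −0.35, SE 0.0854, adjusted p = 0.0177). This call was lost without WT replicate 1 (adjusted p = 0.0534), without TTP-/- replicate 3 (adjusted p = 0.0537), in 1 fit of all 24 libraries (adjusted p = 0.154) and on values rescaled to TPM (−0.20, adjusted p = 0.172), a scale on which the TTP-/- values of all genes move up by 0.14 at 9 h. The antisense gene *Gm16712* had 26 to 39.9% as many reads as *Ebi3* in each library and a log2 fold change of −0.34 at 9 h (adjusted p = 0.0122).

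**Figure D2:**
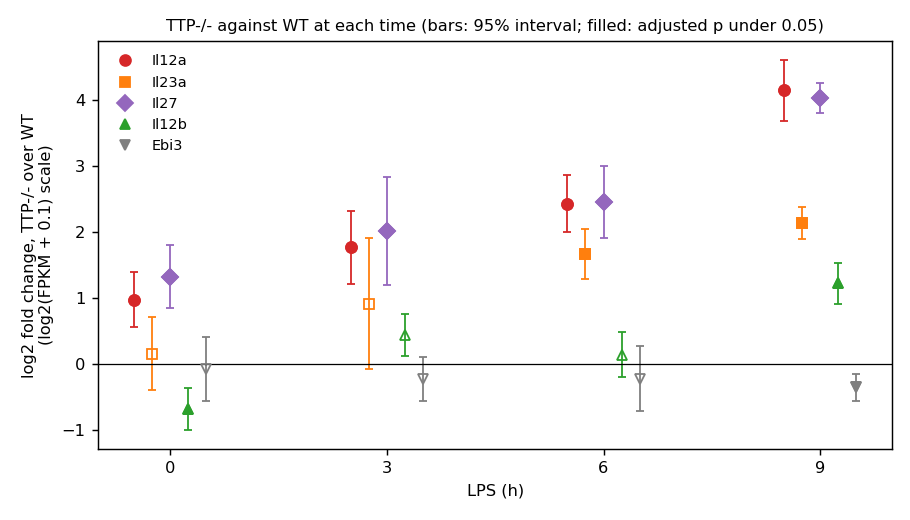
Log2 fold change of TTP-/- over WT for each subunit by hours of LPS, on the log2(FPKM + 0.1) scale with 95% intervals from limma and filled symbols where the adjusted p was under 0.05. At 9 h *Il12a* (4.14) and *Il27* (4.03) lay highest, *Il23a* (2.13) and *Il12b* (1.22) followed, and *Ebi3* (−0.35) lay below 0.

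Whether the genotype difference itself changed with LPS time was tested in 1 fit of all 24 libraries. From 0 to 9 h it grew for 4 of 5 subunits, against 6% of all genes, by 3.17 on the log2 scale for *Il12a* (SE 0.297, adjusted p = 2.68e-06, limma), 2.70 for *Il27* (SE 0.365, adjusted p = 9.82e-05), 1.97 for *Il23a* (SE 0.397, adjusted p = 0.00331) and 1.90 for *Il12b* (SE 0.193, adjusted p = 4.73e-06). From 3 to 9 h, both under LPS, it grew for 3 subunits, against 3.36% of all genes, by 2.37 for *Il12a* (adjusted p = 0.000112), 2.02 for *Il27* (adjusted p = 0.00262) and 0.78 for *Il12b* (adjusted p = 0.0235). For *Il23a* the growth from 3 to 9 h was 1.22 (SE 0.397, adjusted p = 0.0951). It was 0.68 (adjusted p = 0.222) without WT replicate 1 at all times, and passed the threshold without WT replicate 3 (1.63, adjusted p = 0.0343). For *Il12b* the growth from 3 to 9 h missed the threshold when WT replicate 1, 2 or 3 or TTP-/- replicate 1 or 2 was left out at all times.

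From 0 to 6 h the difference grew for 3 subunits, against 5.5% of all genes, by 1.45 for *Il12a* (adjusted p = 0.0036), 1.502 for *Il23a* (adjusted p = 0.022) and 0.82 for *Il12b* (adjusted p = 0.0102). From 0 to 3 h it grew for *Il12b* alone among the subunits, by 1.12 (SE 0.193, adjusted p = 0.00134), against 3.07% of all genes, and without WT replicate 1 also for *Il23a* (1.28, adjusted p = 0.012) and *Il27* (1.10, adjusted p = 0.0155). Over 0 to 6 h the call of *Il23a* was lost without WT replicate 3 or any 1 TTP-/- replicate and that of *Il12b* without WT replicate 3 or TTP-/- replicate 1, which left 1 to 3 subunits, and *Il27* passed without WT replicate 1 (0.90, adjusted p = 0.0318), which made 4. For *Ebi3* none of the 4 differences passed the threshold, with values of −0.15 (3 h minus 0 h, adjusted p = 0.915), −0.14 (6 h minus 0 h, adjusted p = 0.869), −0.27 (9 h minus 0 h, 95% interval −0.81 to 0.27, adjusted p = 0.607) and −0.12 (9 h minus 3 h, adjusted p = 0.910). Differences against 0 h of *Il12a*, *Il27* and *Il23a* set values of few reads against large ones and moved with the added constant. With 0.01 in place of 0.1 FPKM the growth from 0 to 6 h was 0.60 for *Il12a* (adjusted p = 0.419), while that from 0 to 9 h stayed past the threshold for all 4 genes. With voom on recovered reads the growth from 0 to 9 h missed the threshold for *Il27* (1.63, adjusted p = 0.177) and *Il23a* (1.91, adjusted p = 0.328).

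The members also differed in when they were most abundant. The tables of the 4 times had been normalized separately, so the time courses were compared without a test, as RPM (the reads of a gene scaled to all reads assigned in its library), which is common to all libraries. In WT BMDCs *Il23a* had its highest mean at 3 h, 323-fold the 0 h mean, and stood at 6.4% of that level at 9 h. Without WT replicate 1 at 3 h these values were 200-fold and 10.3%. *Il27* was highest at 6 h, at 66.8-fold its 0 h mean, and stood at 36.6% of its highest mean at 9 h. *Il12a* and *Il12b* were also highest at 6 h in WT BMDCs, and at 9 h they stood at 80.9% and 58% of that level. For *Il12a* the WT libraries at 6 h overlapped those at 3 and 9 h, and for *Il27* those at 3 h. *Ebi3* varied least after 3 h, standing at 83.1% of its highest mean at 3 h and 83.2% at 9 h.

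In TTP-/- BMDCs the highest mean lay at 9 h for *Il12a*, *Il27* and *Il12b*. For *Il12a* every TTP-/- library at 9 h was above every one at 6 h, whereas for *Il27* and *Il12b* the libraries of these times overlapped. *Il12a* at 9 h was 5.98-fold its 3 h mean and 2.74-fold its 6 h mean, against 1.09-fold (1.40-fold without WT replicate 1) and 0.809-fold in WT BMDCs. *Il27* at 9 h was 2.58-fold its 3 h mean in TTP-/- and 0.559-fold in WT BMDCs (0.84-fold without WT replicate 1). *Il12b* at 9 h was 2.31-fold its 3 h mean in TTP-/- and 1.34-fold in WT BMDCs. *Il23a* kept its maximum at 3 h in TTP-/- BMDCs, where 17.5% of that level was left at 9 h, against 6.4% in WT BMDCs (10.3% without WT replicate 1). *Ebi3* kept its maximum at 6 h and stood at 76.4% of it at 9 h.

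**Figure D3:**
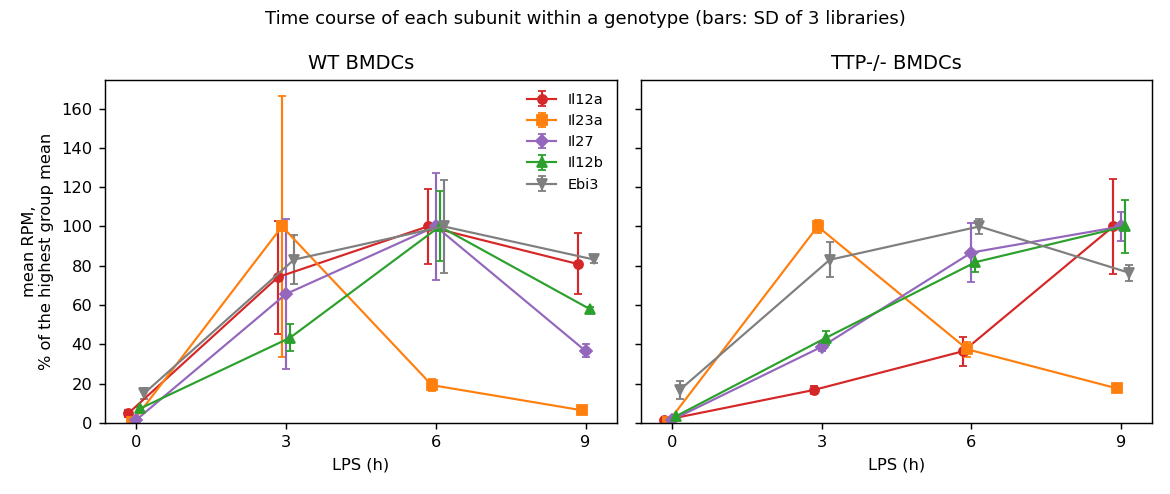
Mean RPM of each subunit as a percentage of its highest group mean within the genotype, by hours of LPS, with bars for the SD of 3 libraries. In WT BMDCs 4 subunits were highest at 6 h and *Il23a* at 3 h, and in TTP-/- BMDCs *Il12a*, *Il27* and *Il12b* were highest at 9 h.

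Since each cytokine needs both chains, the levels of partners were set beside each other in RPM per kilobase of the principal transcript, since the deposited FPKM divide mostly by the span of the gene, introns included. In WT BMDCs at 9 h the order was *Il12b* (711 ± 11.03, SD, n = 3), *Ebi3* (560.0 ± 13.8), *Il27* (5.60 ± 0.51), *Il12a* (3.82 ± 0.731) and *Il23a* (2.53 ± 0.326), with no overlap between neighbours. In TTP-/- BMDCs at 9 h it was *Il12b* (1823 ± 247), *Ebi3* (481 ± 25.9), *Il27* (109 ± 8.18), *Il12a* (85.3 ± 20.8) and *Il23a* (12.6 ± 0.647), where *Il27* and *Il12a* were not apart beyond their spread. At 3 h *Il23a* led the alpha chains in both genotypes, at 39.6 ± 26.3 in WT and 71.9 ± 2.30 in TTP-/- BMDCs, ahead of *Il27* at 10.03 ± 5.84 and 42.2 ± 2.33. Without replicate 1 the WT means at 3 h were 24.5 for *Il23a* and 6.67 for *Il27*. The partner chains thus exceeded the alpha chains in all 8 groups by this measure.

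The excess of the partner mRNA was smaller in every TTP-/- library than in every WT library of the same time, except for IL-23 at 3 h, where the groups overlapped. How often other pairs of genes separate in this way was not computed. At 0 h the ratios rest on 3 to 54 reads of the alpha chain per library, and *Il23a* itself overlapped between the genotypes there. For IL-12, *Il12b* exceeded *Il12a* 163-fold, 242-fold and 170-fold in the 3 WT libraries at 9 h and 23.0-fold, 19.2-fold and 23.0-fold in the TTP-/- libraries. For IL-27, *Ebi3* exceeded *Il27* 98.9-fold, 112-fold and 91.2-fold in WT and 4.78-fold, 3.81-fold and 4.74-fold in TTP-/- libraries at 9 h. For IL-23, *Il12b* exceeded *Il23a* 291-fold, 320-fold and 243-fold in WT and 138-fold, 161-fold and 135-fold in TTP-/- libraries at 9 h. The genotypes did not overlap in these 3 ratios at 9 h, and the IL-27 pair, in which the alpha chain was higher while its partner was lower, differed the most. Within TTP-/- BMDCs the mean *Ebi3* excess over *Il27* was 69.1-fold at 0 h, 12.5-fold at 3 h, 6.77-fold at 6 h and 4.44-fold at 9 h, while in WT BMDCs it was 440-fold, 68.6-fold, 44.6-fold and 101-fold. *Il12b* came nearest to *Il23a* at 3 h, at 16.3-fold in WT and 10.95-fold in TTP-/- BMDCs. Without WT replicate 1 the WT means at 3 h were 19.9-fold for IL-23, with no overlap between the genotypes, 87.8-fold for IL-27 and 177-fold for IL-12. On the log2 FPKM ratio of alpha to partner chain, TTP-/- BMDCs were higher by 2.92 for IL-12, 0.91 for IL-23 and 4.37 for IL-27 at 9 h. A two-sided exact permutation test gave p = 0.1 for 11 of the 12 pairs and times (0.109 after Benjamini-Hochberg adjustment over 12), which is the smallest value that 3 against 3 libraries allow, and p = 0.4 for IL-23 at 3 h.

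**Figure D4:**
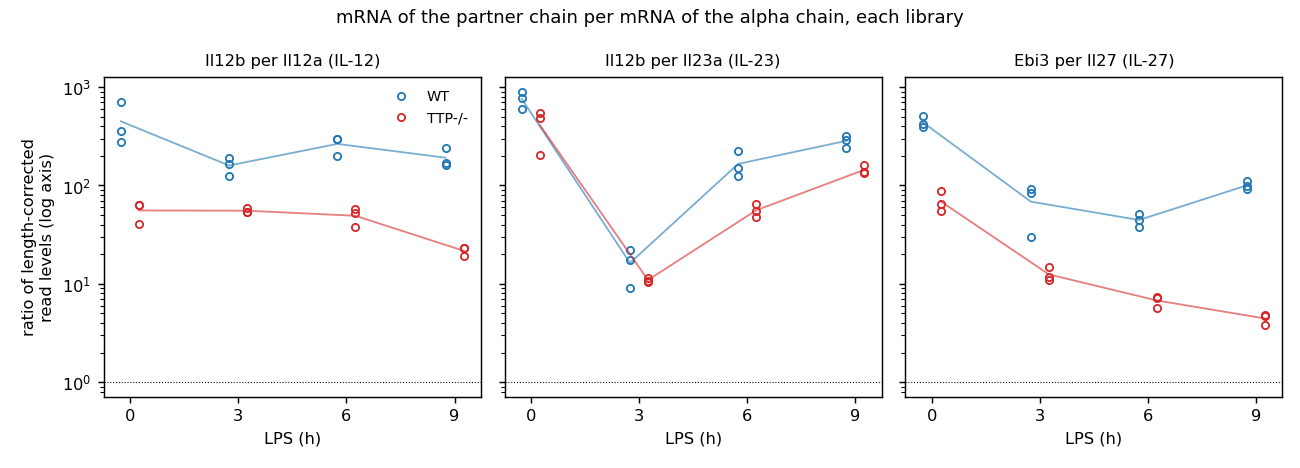
Partner mRNA per alpha chain mRNA in each library, as the ratio of RPM per kilobase of transcript (log axis), by hours of LPS, with WT in blue, TTP-/- in red and lines through the means. The IL-27 ratio at 9 h was 91.2 to 112 in WT and 3.81 to 4.78 in TTP-/- libraries, and the dotted line marks equal levels.

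WT replicate 1 at 3 h bears on each 3 h value of the alpha chains. It exceeded the mean of the other 2 WT libraries (on the log scale) 2.84-fold for *Il23a*, 2.39-fold for *Il27*, 1.70-fold for *Il12a* and 1.30-fold for *Il12b*, and stood at 0.857 of it for *Ebi3*. Of all genes, 98.6%, 97.5%, 92.9%, 74.8% and 52.2% had a smaller gap than these members. Its macrophage markers summed to 198 FPKM, against 79.5 and 56.1 FPKM in the other WT libraries and 204 to 246 FPKM in TTP-/- libraries at 3 h. The cytokine mRNAs listed below as TTP targets summed to 3371 FPKM in this library. They summed to 1249 and 880 FPKM in the other WT libraries and 4940 to 6192 FPKM in TTP-/- libraries. Its neutrophil markers, at 117 FPKM, were like those of the other WT libraries, at 125 and 130.2 FPKM. Without this library 4 subunits were called higher at 3 h, *Il12a* (log2 fold change 2.02), *Il27* (2.43), *Il23a* (1.42) and *Il12b* (0.57), and *Ebi3* still did not pass the threshold (−0.30, adjusted p = 0.126). Mean FPKM of TTP-/- BMDCs was then 4.75-fold that of WT BMDCs for *Il12a*, 5.75-fold for *Il27* and 2.67-fold for *Il23a*.

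Markers of other cell types differed between the genotypes alongside the subunits, beside 17.7% of all genes tested that were higher at 9 h and 19.1% that were lower. Summed neutrophil markers at 9 h were 84.2 to 107 FPKM in WT libraries and 603 to 658 FPKM in TTP-/- libraries, and those of macrophages were 47.8 to 53.4 FPKM and 193 to 307 FPKM, with 8 of 9 tested markers higher. Markers of eosinophils, basophils and mast cells summed to 15.8 to 19.6 FPKM in WT libraries and 117 to 148 FPKM in TTP-/- libraries at 9 h. Of 12 listed 8 were tested, and all 8 were higher. Among them *Epx*, *Ear1*, *Mcpt8* and *Prss34* had WT means below the minimum mean of the filter at every time. These genes passed the filter only through TTP-/- libraries, so their direction was set in part by the filter. Summed markers of B and plasma cells were 3.36 to 7.71 FPKM in WT libraries and 44.8 to 48.7 FPKM in TTP-/- libraries at 9 h. Dendritic cell markers, on the other hand, summed to 2160 to 2320 FPKM in WT libraries and 1400 to 1530 FPKM in TTP-/- libraries at 9 h. Neutrophil markers were already higher at 0 h, with sums of 211 to 294 FPKM in WT libraries and 1270 to 2030 FPKM in TTP-/- libraries, when *Il12a* and *Il27* were called higher, *Il23a* and *Ebi3* did not pass the test and *Il12b* was lower. Of 6 plasmacytoid dendritic cell markers 2 were tested at 9 h, where *Spib* was lower (−1.34, adjusted p = 0.000111) and *Bst2*, which made up most of their sum of 84.9 to 104 FPKM in WT and 114 to 125 FPKM in TTP-/- libraries, did not pass the test (0.31, adjusted p = 0.0607). Of 8 T and NK cell markers, only *Cd8a*, which some dendritic cells also express, passed the filter, and it was lower at 9 h (−1.33, adjusted p = 8.05e-05), while *Cd3e*, *Cd3g*, *Cd4* and *Ncr1* were at or near 0. The part of these cells in the subunit values was not tested.

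Other genes of the pathway were read from fixed lists, beside 17.7% of all genes tested that were higher at 9 h and 19.1% that were lower. Of 5 receptor chains, 2 passed the filter, *Il12rb2*, a chain of the IL-12 receptor, and *Il6st*, the gp130 chain of the IL-27 receptor, and both were lower in TTP-/- BMDCs at 9 h (log2 fold change −0.39, adjusted p = 0.0496, and −0.52, adjusted p = 0.0022). Of 6 JAK and STAT genes below these receptors 3 were lower at 9 h and none higher, with *Stat4*, the transcription factor that IL-12 activates in T cells, at −1.03 (adjusted p = 8.98e-05), *Tyk2* at −0.34 (adjusted p = 0.0407) and *Jak2* at −0.32 (adjusted p = 0.0338). Their median was −0.22, beside −0.05 over all genes.

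Transcription factors and nuclear regulators known to act on subunit genes in myeloid cells went both ways. Of 15 tested, 5 were higher and 4 lower at 9 h, against 17.7% and 19.1% of all genes, with a median of −0.09, beside −0.05 over all genes. *Cebpb*, a leucine zipper factor of myeloid cells, was higher by 2.78 (5.10 ± 0.403 FPKM in WT BMDCs and 36.7 ± 11.5 FPKM in TTP-/- BMDCs, SD, n = 3, limma adjusted p = 7.28e-05), *Spi1*, which encodes PU.1, by 0.89 (adjusted p = 0.000577) and *Irf7*, a factor of the interferon response, by 0.68 (adjusted p = 0.000796). *Rel*, which encodes the NF-κB subunit c-Rel, was lower (−0.69, adjusted p = 0.00202).

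Cytokine mRNAs listed as TTP targets gave a comparison for the alpha chains, although they were picked with earlier results of these data known. The list held *Il1b*, which the authors report as destabilized by TTP in BMDCs but not in macrophages. Among 9 tested, TTP-/- BMDCs had 6 higher before LPS, 7 at 3 h and all 9 at both later times, and none was lower, with a median of 3.09 at 9 h. Of all genes, 13.9%, 11.3%, 10.4% and 17.7% were higher at 0, 3, 6 and 9 h. At 9 h *Il10* was higher by 4.22, *Cxcl2* by 4.09, *Ccl3* by 3.56 and *Tnf* by 3.50 on the log2 scale (adjusted p of 4.76e-05, 6.39e-06, 2.41e-05 and 6.81e-06). The 9 values ran from 1.53 (*Il6*) to 4.22 (*Il10*). *Il10* had WT means of 0.00812 to 0.179 FPKM over the 4 times and passed the filter only through TTP-/- libraries. Its direction was therefore set in part by the filter, and the counts under LPS include it. Leaving it out, the highest value was that of *Cxcl2* (4.09). *Il27* (4.03) and *Il23a* (2.13) lay between *Il6* and *Cxcl2*, *Il12a* (4.14) just above *Cxcl2* and *Il12b* (1.22) below *Il6*.

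Of 7 tested cytokines that act with the IL-12 family on T and NK cells, 4 were higher and 2 lower at 9 h, with a median of 0.66. Of all genes, 17.7% were higher and 19.1% lower at this time. *Ifnb1*, the type I interferon, was higher by 2.33 (adjusted p = 4.60e-05), *Clcf1*, a cytokine of the IL-6 type, by 1.08 (adjusted p = 0.00147) and *Lif*, another of that type, by 0.73 (adjusted p = 0.00283). *Tnfsf4*, which encodes the costimulatory ligand OX40L, was lower (−0.86, adjusted p = 0.000358).

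The genes whose levels most resembled each subunit over the 24 libraries were found by Pearson's correlation of log2 RPM among 6099 genes. The libraries share the LPS time course, which moves many genes together, so the values are a description. *Il12a* was nearest to *Il27* (0.973), *Il1b* (0.968), which encodes IL-1β, and the collagenase gene *Mmp13* (0.967). *Il27* was nearest to the chemokine gene *Ccl3* (0.980), *Il12a* (0.973) and the chemokine gene *Cxcl2* (0.969). *Il23a* was nearest to the chemokine gene *Cxcl1* (0.989), *Nfkbiz* (0.980), which encodes a nuclear IκB protein, and *Ccrl2* (0.973).

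The partner chains had other neighbours. *Il12b* was nearest to *Usp18* (0.975), *Ifi211* (0.974) and *Rsad2* (0.972), genes of the interferon response. *Ebi3* was nearest to its antisense gene *Gm16712* (0.990), *Pmepa1* (0.988) and *Trex1* (0.981), which encodes a DNA exonuclease. Between the members the correlation was highest for *Il12a* with *Il27* (0.973), 0.915 for *Il12b* with *Ebi3*, and lowest for *Il12a* with *Ebi3* (0.708). The 2 chains of IL-27 correlated at 0.795, those of IL-12 at 0.857 and those of IL-23 at 0.822.

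RefSeq promoter sequences (GRCm38.p6, from 250 bases before to 50 after the start) matched 3 of the subunits, *Il12a* with 2 starts, *Il12b* and *Ebi3*, and were searched on both strands for 4 motifs. The NF-κB consensus was found in *Ebi3*, at bases −44 and 15 from the start, and is held by 8.46% of all promoters. GAGGAA, a core of PU.1 sites, was found in *Il12b* (bases −219 and −143) and *Ebi3* (base −176) and is held by 28.3% of promoters. TGANTCA, the AP-1 site (7.81% of promoters), and GAAANNGAA, the interferon-stimulated response element (8.56%), were in none of these windows, and neither *Il12a* window held any of the 4 motifs. The absence of a motif says only that these letters are not in the window.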

How the data were processed

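RNA-Seq libraries of polyA RNA (SENSE mRNA-Seq kit) were trimmed with cutadapt and aligned with STAR 2.5 to GRCm38 by the authors, who compared genotypes per time with DESeq2. FPKM, as deposited by the authors, were normalized within the 6 libraries of a time and mostly divide by the gene span, introns included. The mean normalized signal per gene deposited beside them was used only to recover whole reads, and 100% of values lay within 0.05 of a whole number. The deposited fold changes, standard errors, Wald statistics and p-values are the authors' own comparisons and were not used. The counting tool is not given in the sources used here.

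Genes averaging 0.5 FPKM or more in the 24 libraries were kept (8350, of which 8344 in all 4 tables). TTP-/- was compared with WT at each time on log2(FPKM + 0.1) with limma 3.58.1 in R 4.3.3 (mean-variance trend, two-sided), and changes of the difference between times came from 1 fit of 24 libraries. The p-values measure the spread between biological triplicates, whose animals are not stated. Named were the 5 members, *Zfp36*, up to 4 genes a list with the largest change past the threshold at 9 h, and the 3 genes most like each member. Marker genes and the overlapping genes *Apobr* and *Gm16712* were added after their values were seen. The members and lists were chosen with earlier results of these data known. Fits were checked on simulated data. Exact permutation tests of each member at each time gave no p below 0.1.

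Same-numbered WT and TTP-/- libraries deviated together (correlation over 0.1) in 5 of 12 pairs, including all 3 at 6 h (0.504, 0.217 and 0.499), and the labels do not say what a number marks. Other settings tried were pseudocounts of 0.01 and 1, minimum means of 0 and 5 FPKM, TPM, no trend, a replicate block, voom on recovered reads, 1 fit for all times, an adjusted p of 0.01 and leaving out each replicate.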

Additional observations from a re-analysis of the deposited data

Results flagged for a closer look

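The genotype difference in log2(FPKM + 0.1) changed between times for 4 subunits by an interaction term in limma over 24 libraries, and each of these results is listed here with its value. For *Il12a* it was larger at 6 h than at 0 h by 1.45 (adjusted p = 0.0036), at 9 h than at 0 h by 3.17 (adjusted p = 2.68e-06) and at 9 h than at 3 h by 2.37 (adjusted p = 0.000112). For *Il27* it was larger at 9 h than at 0 h by 2.70 (adjusted p = 9.82e-05) and than at 3 h by 2.02 (adjusted p = 0.00262). For *Il23a* it was larger at 6 h than at 0 h by 1.502 (adjusted p = 0.022) and at 9 h than at 0 h by 1.97 (adjusted p = 0.00331). For *Il12b* it was larger than at 0 h by 1.12 at 3 h (adjusted p = 0.00134), 0.82 at 6 h (adjusted p = 0.0102) and 1.90 at 9 h (adjusted p = 4.73e-06), and larger at 9 h than at 3 h by 0.78 (adjusted p = 0.0235). *Il12b* was the member whose difference turned around, from lower in all 3 untreated TTP-/- libraries to higher in all 3 at 9 h.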

How the results depend on the processing

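Of the 315 alternative values for TTP-/- against WT and 276 for its change between times, 295 and 239 kept direction and side of the threshold. At 0 h *Il12b* (−0.68) missed an adjusted p of 0.01, *Ebi3* was 0.046 on TPM, and a filter at 5 FPKM, which drops *Il12a*, left 1 member higher. At 3 h *Il23a* (0.92) passed in 1 fit for all times, and *Il12b* passed in that fit (0.44), at a filter of 5 FPKM (0.44), on TPM (0.54) and with voom (0.44), so that the 1 fit gave 4 members higher. At 9 h *Ebi3* missed an adjusted p of 0.01 and the threshold in 1 fit for all times (−0.35), and on TPM (−0.20).

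The replicate block (pairing by number) moved *Il12b* past or behind the threshold at 0 h (−0.68, adjusted p = 0.0557) and 3 h (0.44, adjusted p = 0.0405) and brought the change of *Il27* from 0 to 6 h to 1.13 (adjusted p = 0.0471), and changed no other call of a member. At 0 and 3 h the numbers did not pair the libraries.

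Changes from 0 h, where the alpha chains had 3 to 54 reads a library, depended on the scale, and the cause was not tested. From 0 to 3 h *Il12a* was 0.83 with a pseudocount of 1, −0.025 with 0.01 and −0.19 with voom, and *Il27* 1.28, −0.28 and −0.44, and −0.0090 on TPM, with 3 members higher at a pseudocount of 1. From 0 to 6 h *Il12a* was 0.60 with a pseudocount of 0.01, 0.92 on TPM and 0.43 with voom, *Il23a* 1.40, 1.46 and 1.41, and *Il27* 1.86 with a pseudocount of 1 and −0.0165 with voom, with 1 member higher under a pseudocount of 0.01, TPM and voom. From 0 to 9 h voom gave 1.91 for *Il23a* and 1.63 for *Il27*, both short of the threshold, and 2 members higher.

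Alpha to partner ratios moved with the pseudocount but kept their direction. With 1, IL-12 was 0.80, 0.57, 1.52 and 1.87 at 0, 3, 6 and 9 h, IL-23 0.51 at 9 h, and IL-27 0.35, 2.34 and 3.58 at 0, 6 and 9 h. With 0.01, IL-12 was 2.64 and IL-27 2.43 at 0 h.

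Leaving out 1 replicate at a time gave these ranges. At 0 h they were −0.051 to 0.28 for *Il23a* and −0.27 to 0.069 for *Ebi3*. At 3 h they were 0.58 to 1.42 for *Il23a*, 0.37 to 0.57 for *Il12b* and 2 to 4 members higher. For *Ebi3* they were −0.46 to −0.071 at 6 h and −0.38 to −0.31 at 9 h. For changes between times they were 0.31 to 1.28 for *Il23a*, 0.44 to 1.10 for *Il27*, −0.29 to 0.086 for *Ebi3* and 1 to 3 members higher from 0 to 3 h. From 0 to 6 h they were 1.31 to 1.77 for *Il23a*, 0.90 to 1.34 for *Il27*, 0.68 to 0.94 for *Il12b*, −0.31 to 0.049 for *Ebi3* and 1 to 4 members higher. From 3 to 9 h they were 0.68 to 1.63 for *Il23a*, 0.64 to 0.88 for *Il12b* and −0.20 to 0.0029 for *Ebi3*.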
